A study of Homo sapiens with 6 samples.

Results

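Kinesins are motor proteins that step along microtubules on the energy of ATP, and the human genome holds a large family of them. Some build and move the mitotic spindle: they push the poles apart, set microtubule length, hold chromosome arms and bundle the midzone in which the cell divides. Others carry vesicles, organelles, RNA and ciliary cargo between divisions. The kinesins described here are all genes with a KIF or KIFC symbol that had a probe set naming no other gene, 41 of the 18132 genes on the array. Where a gene had several probe sets, the brightest over the 6 samples stood for it. A mitotic set of 12 genes was named from their known roles (KIF2C, KIF4A, KIF11, KIF14, KIF15, KIF18A, KIF18B, KIF20A, KIF20B, KIF22, KIF23 and KIFC1). Its members were chosen with earlier results of these data known, and the remaining 29 genes form the second set. That second set is mostly cargo motors, but it also holds KIF2A, KIF2B and KIF24, relatives of the microtubule depolymerase KIF2C, so it is called the remaining kinesins and not the transport motors. KIF4B had no probe set of its own, and the mitotic kinesin CENPE falls outside the symbols used.

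The samples came from U87, an established human glioma line, made to overexpress either miR-151a, a small RNA that lowers its target messages, or the control miR-NC, with 3 samples in each group. Messenger RNA was measured on 1-colour arrays. The labels do not tell which arm of miR-151a was expressed, by what means or for how long. They also do not tell whether the 3 samples in each group were grown separately, so a p-value here refers only to the spread among these samples, and that spread may be technical. All values below are deposited probe set intensities, and every fold change is on the log2(intensity + 1) scale. A change "passed" where the Benjamini-Hochberg adjusted p from limma, over all 18132 genes, was under 0.05.

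Array medians lay between 57.1 and 58.6 and lower quartiles between 14.9 and 15.6. Of all genes, 15.4% passed, 8.11% as lower and 7.27% as higher, and the median log2 change over all genes was -0.01. For 34.5% of genes the groups did not overlap, with miR-151a the lower group for 19.4% and the higher for 15.1%. XRCC4, the DNA repair gene reported as a target of miR-151a, was lower at 132 ± 6.93 (SD, n = 3) against 167 ± 11.05 (SD, n = 3). The mesenchymal gene VIM was bright (19170 with miR-151a), and GFAP, the glial filament gene, lay near the array median (61.4). The glial gene S100B and the stem cell gene SOX2 lay under the array median in every sample. The progenitor filament gene NES was lower (log2 change -0.31). Of the other glioma markers looked at, OLIG2 lay near the array median and CD44 was bright (63.8 and 5687 with miR-151a). Neither passed (log2 change 0.15 and -0.16). The 7 markers of immune, endothelial, epithelial and myelin cells had group means from 7.53 to 50.2, under the array medians. Of these, 0 passed and 1, the endothelial gene PECAM1, had an unadjusted limma p under 0.05 (log2 change -0.29).

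The promoters of most mitotic kinesins held letters known from genes that peak in mitosis, and the set was chosen for mitotic roles. Many genes that peak in mitosis carry a cell cycle genes homology region (CHR), often TTTGAA, which binds the MuvB complex, and CCAAT boxes, which bind NF-Y. RefSeq promoter windows (GRCh38.p14, 250 bases before to 50 after the start) were found for 12 of 12 mitotic and 21 of 29 remaining kinesins and searched on both strands, counting a gene if any of its windows held the letters. The letters TTTGAA occurred in 9 of 12 mitotic kinesins, in 1 of 21 remaining kinesins and in 15.8% of 15843 protein-coding genes. The rarer CHR form TTCGAA was found in KIF22 among the mitotic kinesins, in KIF24 among the remaining ones and in 2.11% of protein-coding genes. These searches were chosen after the values were seen. CCAAT occurred in 10 of 12 mitotic, 7 of 21 remaining and 42.1% of protein-coding genes. A CHR form and CCAAT together were present in 9 of 12 mitotic kinesins, 2 of 21 remaining kinesins (KIF5B and KIF24) and 7.28% of protein-coding genes. A match is a description of letters and not a shown binding site.

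The 120 bases before the start are shown for 6 mitotic kinesins that were lower with miR-151a and then for KIFC1 and KIF18B, mitotic kinesins that were not. Capitals mark CCAAT and TTTGAA or their reverse complements ATTGG and TTCAAA.
KIF20A: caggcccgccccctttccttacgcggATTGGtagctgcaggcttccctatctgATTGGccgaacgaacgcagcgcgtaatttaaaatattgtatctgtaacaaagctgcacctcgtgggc
KIF23: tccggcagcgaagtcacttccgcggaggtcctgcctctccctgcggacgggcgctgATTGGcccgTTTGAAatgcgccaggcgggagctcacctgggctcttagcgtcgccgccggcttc
KIF11: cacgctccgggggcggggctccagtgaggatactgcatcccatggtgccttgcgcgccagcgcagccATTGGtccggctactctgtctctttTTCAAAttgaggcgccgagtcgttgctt
KIF15: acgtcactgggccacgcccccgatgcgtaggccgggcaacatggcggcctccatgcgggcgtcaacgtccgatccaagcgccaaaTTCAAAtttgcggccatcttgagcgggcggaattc
KIF18A: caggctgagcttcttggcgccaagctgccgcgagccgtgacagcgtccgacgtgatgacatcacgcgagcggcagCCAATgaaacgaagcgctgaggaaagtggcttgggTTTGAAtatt
KIF4A: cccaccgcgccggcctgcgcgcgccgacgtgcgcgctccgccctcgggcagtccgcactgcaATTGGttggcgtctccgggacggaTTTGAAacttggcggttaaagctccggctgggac
KIFC1: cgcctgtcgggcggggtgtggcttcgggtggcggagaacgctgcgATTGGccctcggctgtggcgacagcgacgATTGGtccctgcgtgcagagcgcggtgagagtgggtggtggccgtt
KIF18B: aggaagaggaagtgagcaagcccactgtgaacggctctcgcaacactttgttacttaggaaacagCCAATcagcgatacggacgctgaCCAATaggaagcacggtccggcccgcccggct
These windows lie at chr5:138178992-138179111, chr15:69414229-69414348, chr10:92593010-92593129, chr3:44761674-44761793, chrX:70289984-70290103 and chr6:33391703-33391822 on the forward strand and at chr11:28108157-28108276 and chr17:44947774-44947893 on the reverse strand. KIF20A has paired CCAAT boxes and no TTTGAA in its window, while KIF15 has TTTGAA and no CCAAT. KIFC1 and KIF18B also have paired CCAAT boxes, and their TTTGAA lies just past the stretch shown, 5 and 3 bases into the transcript. Among the mitotic kinesins, KIF2C had none of the searched letters in its window.

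Mitotic kinesins were lower with miR-151a as a group of genes. Of the 12, 9 fell and 0 rose, where 8.11% of all genes fell, and the median log2 change was -0.37 against -0.01 over all genes. Values did not overlap between the groups for 10 of the 12, all of them lower, where 19.4% of all genes had this pattern. All 12 lay above the array median in every sample. Of the 9730 genes at that level, 13.4% fell and 2920 had this pattern. Among the 9, KIF18A fell by 14.6%, the least, and KIF20A fell by 36.7%, the most. Averaged over the 12 genes after centring each on its mean, the log2 level was -0.20, -0.14 and -0.16 in the miR-151a samples and 0.19, 0.16 and 0.15 in the miR-NC samples. For the remaining kinesins the same averages stayed between -0.02 and 0.02 in all 6 samples. In RNA from whole cultures, fewer dividing cells and less transcript per cell cannot be told apart.

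**Figure D1:**
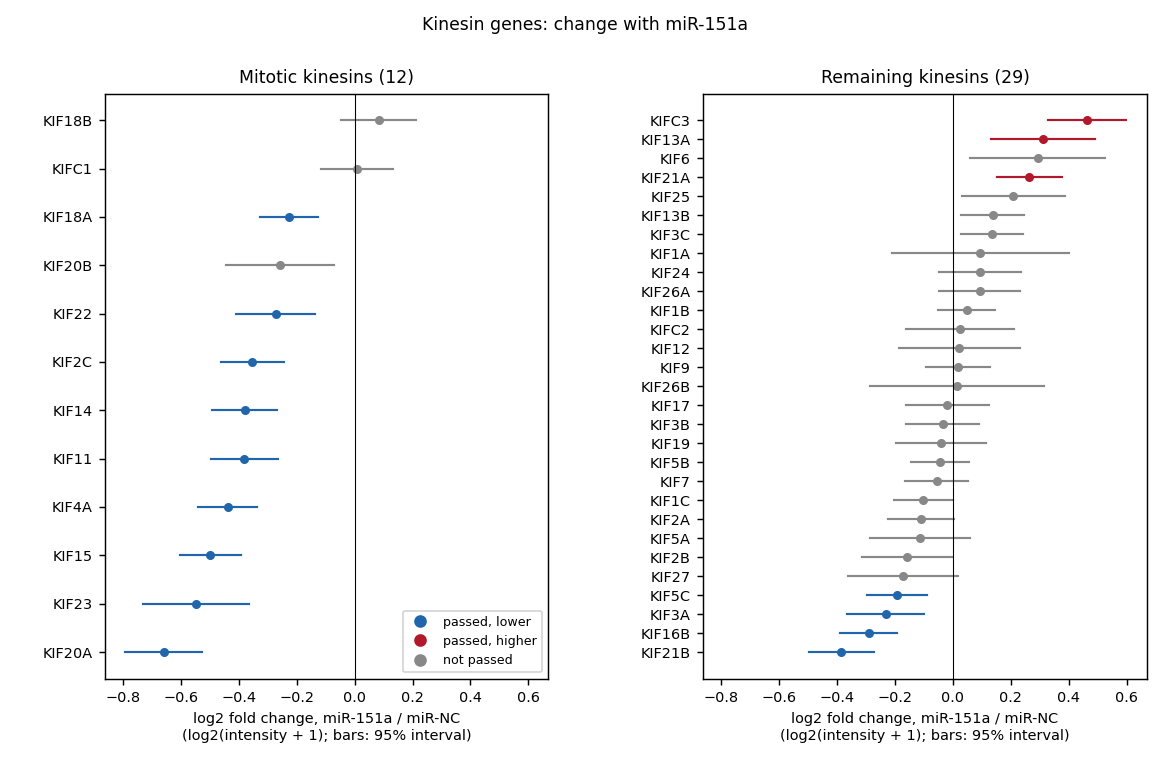
Log2 fold change (x axis) of each kinesin gene with its 95% interval from limma, mitotic set on the left and remaining set on the right, with blue for genes that passed as lower, red for genes that passed as higher and grey for the rest. In the mitotic set 9 of 12 genes lie below 0 past the threshold, while the remaining set is spread on both sides of 0, with 4 lower and 3 higher.

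The motors of the midzone and of cytokinesis included KIF20A and KIF23, the 2 largest falls of the family by brightest probe set. Averaged over probe sets, KIF23 was at -0.49, close to KIF15 at -0.50 and KIF14 at -0.48. KIF20A, also known as MKLP2, carries the chromosomal passenger complex to the midzone. Its intensity was 363, 414 and 378 in the miR-151a samples and 605, 606 and 613 in the miR-NC samples. The highest miR-151a value was thus far below the lowest control, and the log2 change was -0.66 (SE 0.057, 95% interval -0.79 to -0.53, limma adjusted p = 0.00042). KIF23, the motor subunit of centralspindlin, which starts the cleavage furrow, measured 342, 323 and 307 with miR-151a and 525, 470.4 and 430.4 with miR-NC. The control samples of KIF23 were more spread than those of KIF20A, yet the groups did not overlap, and KIF23 fell by 31.6% (log2 change -0.55, SE 0.079). KIF14, which binds citron kinase at the midbody, was at 178, 192 and 186 against 247, 237 and 239.6, with no overlap and a fall of 23.1% (log2 change -0.38, SE 0.048).

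KIF20B, also called MPP1, acts late in cytokinesis and was the member of this role that did not pass. Its values were 239, 261 and 247 with miR-151a and 336, 287 and 274 with miR-NC. Its groups did not overlap, but 1 control sample, replicate 1, stood above the other two, and the log2 change of -0.26 had a 95% interval from -0.45 to -0.07 and a limma adjusted p of 0.069. It passed with a pseudocount of 32 (adjusted p = 0.035) and with a variance trend and robust fit (0.0026), within a range from 0.0026 to 0.18 over all alternatives.

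The motors that keep the spindle bipolar fell as well. KIF11, known as Eg5, slides antiparallel microtubules and pushes the poles apart. It measured 472, 468 and 507 with miR-151a and 619, 645 and 620.1 with miR-NC, a gap between the groups that was wider than the range within either, and it fell by 23.2% (log2 change -0.38, SE 0.050). KIF15, which backs up KIF11 on the formed spindle, was at 146, 143 and 144 against 205, 198 and 210.4. The miR-151a samples of KIF15 lay within a narrow range, and the gene fell by 29.2% (log2 change -0.50, 95% interval -0.60 to -0.39, limma adjusted p = 0.00052).

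Motors on chromosome arms moved the same way. KIF4A, a chromokinesin that also caps the midzone with PRC1, was at 238, 241 and 238 with miR-151a and 322, 335 and 318 with miR-NC. Its groups were well apart, with a fall of 26.2% (log2 change -0.44, SE 0.044). KIF22, or Kid, which pushes chromosome arms toward the spindle equator, was at 264, 292 and 289 against 329, 335 and 358. Its fall of 17.3% (log2 change -0.27, SE 0.058, limma adjusted p = 0.019) did not pass without miR-NC replicate 2 (adjusted p = 0.0503) or miR-NC replicate 3 (adjusted p = 0.066), in a range from 0.00022 to 0.066.

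Motors that set microtubule length were divided. KIF2C, or MCAK, a depolymerase that frees wrongly attached kinetochores, was at 767, 809.7 and 774 with miR-151a and 1017, 972 and 1015 with miR-NC, and fell by 21.7% (log2 change -0.35, SE 0.047). KIF18A, which damps the growth of kinetochore fibres so that chromosomes align, was at 327, 329.7 and 333 against 394, 376 and 389.7, a fall of 14.6% and the smallest among the 9 that passed (log2 change -0.23, SE 0.043). Both genes had groups that did not overlap.

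KIF18B and KIFC1 did not follow. KIF18B, the paralog of KIF18A that acts on astral microtubules, measured 137, 135 and 150.98 with miR-151a and 131, 135 and 132 with miR-NC. The groups overlapped, and its log2 change of 0.08 had a 95% interval from -0.05 to 0.21. KIFC1, or HSET, is a minus-end-directed motor that focuses spindle poles and clusters extra centrosomes in tumour cells. It measured 148, 162 and 156 with miR-151a and 153, 161 and 149 with miR-NC, so the groups overlapped fully, and the log2 change of 0.01 had a 95% interval from -0.12 to 0.13. Both intervals lie wholly above -0.23, the log2 change of KIF18A.

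**Figure D2:**
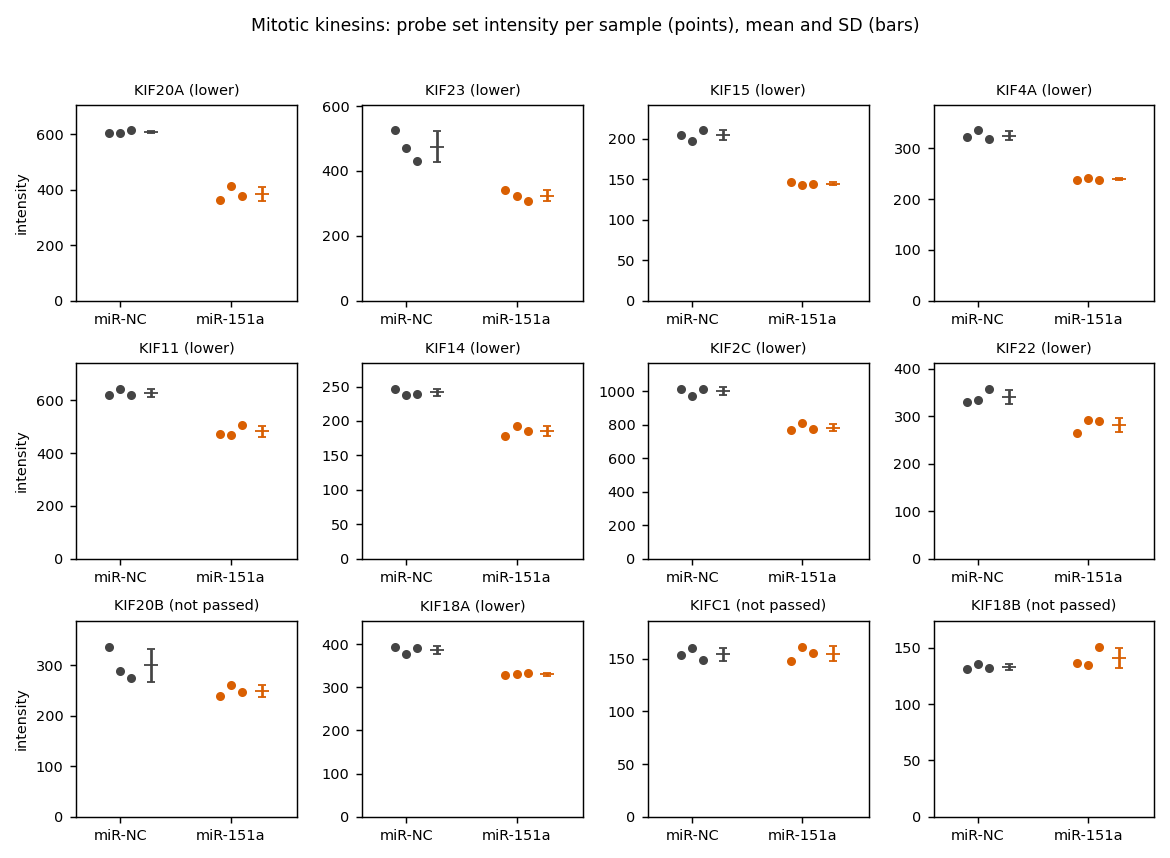
Probe set intensity (y axis, linear, from 0) of the 12 mitotic kinesins in each of the 3 miR-NC samples (grey) and 3 miR-151a samples (orange), with the mean and SD beside the points. The groups are apart in 10 of 12 panels and overlap for KIFC1 and KIF18B.

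Separate probe sets of a gene gave a further view within the same arrays. Where they lie on its transcripts was not examined, so they may read overlapping parts. Over all 49293 probe sets 7.27% passed as lower and 6.81% as higher. Of 22 probe sets for mitotic kinesins, 14 passed as lower and 0 as higher. Of 79 for the remaining kinesins, 5 passed as lower and 11 as higher, and 6 of those 11 belong to KIFC3. The dimmer probe sets of KIF14 and KIF11 had larger log2 changes than the brightest ones, at -0.58 and -0.48, and those of KIF23 and KIF4A had smaller ones, at -0.43 and -0.34. The second probe set of KIF2C was at -0.26 and just missed the threshold (limma adjusted p over probe sets 0.051), and the dimmest of 3 for KIF22 was at -0.18 (adjusted p = 0.23). All 4 probe sets of KIF18B lay between 0.08 and 0.14 and 0 passed, so none of them gave a lower value with miR-151a. KIFC1, KIF15, KIF18A, KIF20A and KIF20B had a single probe set each.

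**Figure D3:**
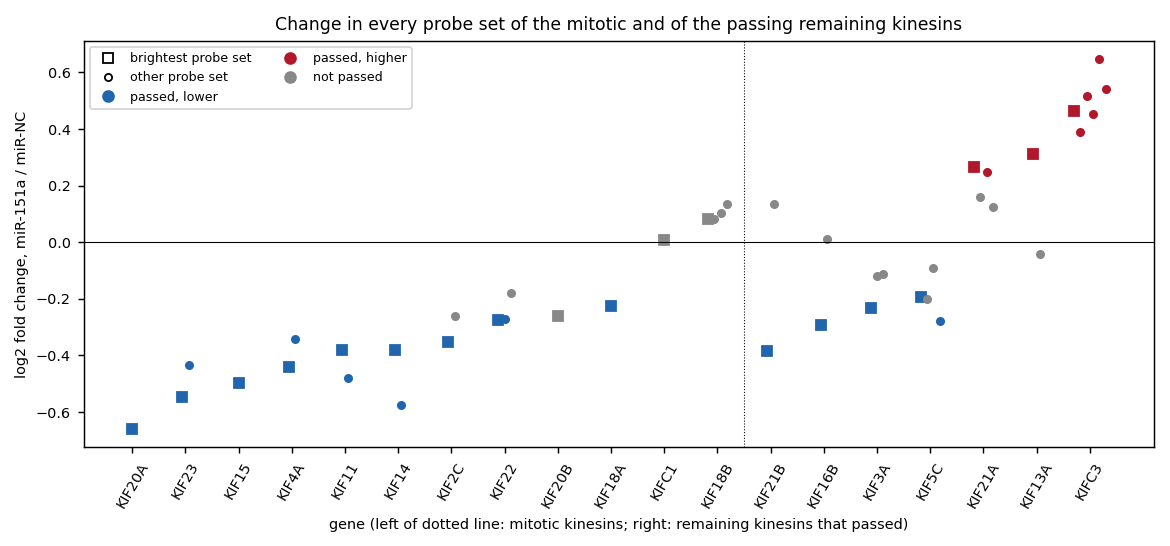
Log2 fold change (y axis) of every probe set of the 12 mitotic kinesins (left of the dotted line) and of the 7 remaining kinesins that passed (right), with squares for the brightest probe set of each gene and colours for the call over all probe sets. All 6 probe sets of KIFC3 are above 0 and past the threshold, while the second probe sets of KIF21B, KIF16B and KIF13A lie away from the brightest one.

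The remaining kinesins showed no shared direction by gene. Of 29, 4 fell and 3 rose, where 15.4% of all genes passed, and the median log2 change was 0.014. Groups did not overlap for 7 as lower and 7 as higher, beside 34.5% of all genes in either direction. Of the 17 that were above the array median in every sample, 2 fell and 2 rose, where 24% of all genes at that level passed, 13.4% as lower and 10.6% as higher. The share of these kinesins that passed was near that background. The 4 falls became 2 when probe sets were averaged, and also when miR-NC replicate 1 or 2 was left out, or miR-151a replicate 1 or 3.

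KIFC3 had the largest rise of the family. It is a minus-end-directed motor that acts in interphase, at adherens junctions and in Golgi positioning. Its intensity was 697, 671 and 629 with miR-151a and 474, 508 and 464 with miR-NC. Every miR-151a sample exceeded every control, and the rise was 1.38-fold (log2 change 0.46, SE 0.058, 95% interval 0.33 to 0.60, limma adjusted p = 0.0020). All 6 of its probe sets passed as higher, with log2 changes from 0.39 to 0.65, and it passed in each alternative run.

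The paralogs KIF21A and KIF21B changed in opposite directions by their brightest probe sets. KIF21A, which curbs microtubule growth at the cell cortex, was at 437, 427 and 462 with miR-151a and 361, 373 and 368 with miR-NC, with no overlap and a rise of 20.1% (log2 change 0.26, SE 0.048). Of its 4 probe sets 2 passed, both higher. KIF21B, a motor best known from neurons and T cells, was at 54.3, 58.3 and 56.6 against 73.7, 72.3 and 75.9. Its groups did not overlap and it fell by 23.5% (log2 change -0.39, SE 0.048), but these values lie near the array median, and its second probe set was at 0.14 and did not pass. Averaged over probe sets, the log2 change of KIF21B was -0.13.

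The other cargo motors that passed had smaller or less secure changes. KIF16B, which moves early endosomes, fell by 18.3% (46.8 ± 0.380 against 57.6 ± 0.871, SD, n = 3 each), while its dimmer probe set was at 0.01. KIF13A, which carries endosomal and Golgi cargo, was at 59.1 ± 1.33 against 47.6 ± 5.37 (SD, n = 3 each), a log2 change of 0.31, with its other probe set at -0.04. Values of KIF16B and KIF13A lie near the array median. With a pseudocount of 32 their log2 changes were -0.18 and 0.20. KIF5C, a heavy chain of conventional kinesin, fell by 12.5% (356 ± 8.35 against 407 ± 7.90, SD, n = 3 each). KIF3A, which pairs with KIF3B in the ciliary motor kinesin-2, fell by 14.9% (217 ± 2.91 against 255 ± 17.2, SD, n = 3 each). Averaged over probe sets, KIF16B, KIF13A and KIF3A did not pass (limma adjusted p = 0.074, 0.195 and 0.090).

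For KIF3A, KIF13A and KIF5C the call depended on having all or nearly all samples. Calls were also fewer over all genes in fits without 1 sample. Falls went from 1470 to between 800 and 1021, and rises from 1318 to between 887 and 1102. KIF3A and KIF13A lost their calls when any of the 3 miR-151a samples, or either of miR-NC replicates 1 and 2, was left out, with limma adjusted p from 0.071 to 0.094 for KIF3A and from 0.0715 to 0.103 for KIF13A. Over all 6 such fits the log2 change ran from -0.28 to -0.18 for KIF3A, from 0.25 to 0.40 for KIF13A and from -0.21 to -0.18 for KIF5C. KIF5C lost its call when miR-151a replicate 1 or 3, or any of the 3 miR-NC samples, was left out, with limma adjusted p from 0.063 to 0.085. KIF16B, KIF21A, KIF21B and KIFC3 passed whichever sample was left out.

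The remaining kinesins that were the brightest of their subfamily and did not pass gave small differences. KIF5B, the widely expressed heavy chain of conventional kinesin, was at 2805, 2827 and 2738 with miR-151a and 2945, 2835 and 2854 with miR-NC. The groups did not overlap but the log2 change was only -0.04, with a 95% interval from -0.15 to 0.06. KIF1B, a carrier of mitochondria and vesicle precursors, was at 0.05 (95% interval -0.05 to 0.15), while its dimmer probe sets ranged from -0.22 to 0.18 and 0 of its 6 passed. KIF3B, the partner of KIF3A, was at -0.04 (-0.16 to 0.09). KIF2A, the interphase and spindle-pole relative of KIF2C, was at -0.11 (limma adjusted p = 0.18), and KIF9, a ciliary motor, at 0.02. Over the 13 remaining kinesins that were above the array median in every sample and did not pass, log2 changes ran from -0.11 to 0.14. KIF2B, KIF25, KIF26A and KIF27 lay below the lower quartile of every array, between 5.18 and 14.3, and their values say little about a change. KIF12, KIF19 and KIF26B, which stand for their subfamilies in this set, were at 0.02, -0.04 and 0.01.

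Whether paralogs changed unequally was examined on the ratio of their intensities within each sample, for all 20 pairs of kinesins that share a number or the KIFC stem, a set of pairs chosen after the values were seen. With 3 samples against 3 the exact two-sided permutation test cannot go below p = 0.1, so it could call no pair, and the ratios are given as a description. The log2 ratio did not overlap between groups for 12 of the 20 pairs. For single genes the groups did not overlap for 34.5% of all genes. The share among ratios of other gene pairs was not computed, so the count shows nothing particular to paralogs. By the brightest probe sets the largest shift was that of KIF21A over KIF21B, 0.65, with log2 ratios of 2.99, 2.85 and 3.01 with miR-151a and 2.28, 2.35 and 2.26 with miR-NC. That rank depends on the probe sets: averaged over them, the log2 change was 0.20 for KIF21A and -0.13 for KIF21B, beside 0.01 for KIFC1 and 0.50 for KIFC3. The ratio of KIFC1 to KIFC3 shifted by -0.46, that of KIF20A to KIF20B by -0.40, that of KIF18A to KIF18B by -0.31 and that of KIF2A to KIF2C by 0.24, each without overlap. The shift for KIF20A over KIF20B was large beside the spread of the ratio with miR-151a (SD 0.033) and less so beside that with miR-NC (SD 0.16).

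**Figure D4:**
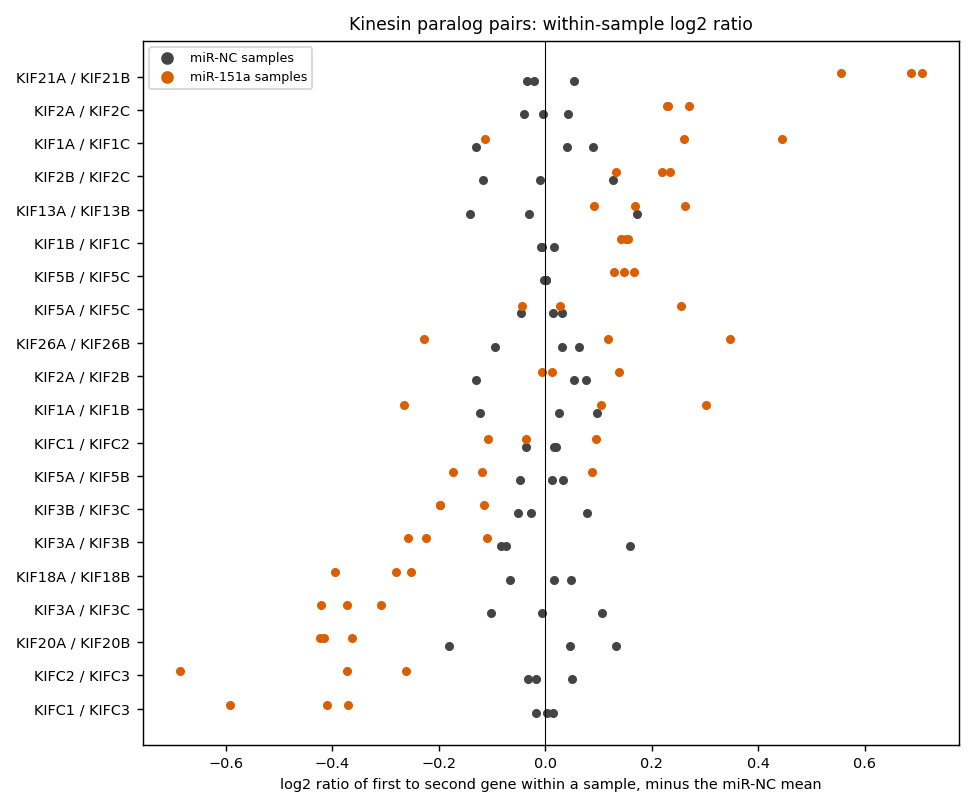
Log2 ratio of the first to the second gene of each of 20 kinesin paralog pairs within a sample, shown as the difference from the miR-NC mean (x axis), with dark grey points for the 3 miR-NC samples and orange points for the 3 miR-151a samples. KIF21A over KIF21B lies farthest to the right and KIFC1 over KIFC3 has the lowest mean shift, and 8 of 20 pairs overlap between groups.

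The mitotic kinesins fell beside the proteins they work with. Of 17 mitotic partners, 16 fell and 0 rose, where 8.11% of all genes and 13.4% of genes above the array median in every sample fell. The median log2 change was -0.34, and 1 partner, the spindle-pole protein gene NUMA1, did not pass (-0.13). AURKB and CDCA8, which encode parts of the chromosomal passenger complex carried by KIF20A, fell by 26.8% and 28.2%. HMMR, a spindle assembly factor, fell by 23.8% and AURKA, the spindle-pole kinase, by 23.7%. CENPE, the kinetochore kinesin whose symbol lies outside the family rule, fell by 21.5% (354 ± 6.68 against 451 ± 13.4, SD, n = 3 each), within the range of the mitotic kinesins that fell.

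Markers of cycling cells moved by a like amount. All 8 fell, where 8.11% of all genes and 13.4% of genes above the array median in every sample fell. Their median log2 change was -0.34 beside -0.37 for the mitotic kinesins. The proliferation antigen gene MKI67 was at -0.44, the cyclin genes CCNA2 and CCNB1 at -0.53 and -0.34 and the topoisomerase gene TOP2A at -0.32. Their part in the fall of the kinesins was not tested. Among 16 regulators of mitotic transcription, 4 fell and 1 rose, with a median of -0.14. Of these 16 genes 14 lay above the array median in every sample, where 13.4% of genes fell and 10.6% rose. Groups did not overlap for 11 of the 16 as lower and 2 as higher, beside 19.4% and 15.1% of all genes. Among the 9730 genes above the array median in every sample these counts were 2920 and 2044. LIN9, among the 11, was above that median in only some samples. FOXM1, an activator of mitotic genes, fell by 30.7% (288 ± 3.63 against 417 ± 13.5, SD, n = 3 each), E2F8, a repressor of the E2F family, was at -0.47 and TFDP1, a dimer partner of E2F factors, at -0.31. LIN37, a subunit of the MuvB complex that acts in repression, rose 1.31-fold. The count of 4 falls became 7 with a pseudocount of 32 and 8 with the mean over probe sets or a variance trend.

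Among the partners of the cargo motors few genes passed, beside 15.4% of all genes and 24% of genes above the array median in every sample. Among 21 light chains and cargo adaptors 1 rose and 0 fell: PLEKHM2, or SKIP, which links lysosomes to kinesin-1, was at 717 ± 15.3 against 598 ± 1.90 (SD, n = 3 each), a log2 change of 0.26, and lost its call when probe sets were averaged (limma adjusted p = 0.063, range 9.6e-06 to 0.063). Among 21 subunits and regulators of cytoplasmic dynein, the main minus-end motor, 1 rose and 0 fell: PAFAH1B1, or LIS1, was at 0.17, with a log2 change of 0.02 when probe sets were averaged, and lost its call whichever of the 6 samples was left out. Over all probe sets, 0 of its 7 passed as higher and 1 passed as lower, at -0.21. The counts of falls in these lists were 4 and 4 with a pseudocount of 32. Of 14 intraflagellar transport genes, whose trains kinesin-2 pulls along the cilium, 1 fell, IFT80, by 15.5%, and 0 rose, with 3 higher under a pseudocount of 32.

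Among tubulins and microtubule-associated proteins, 20 of 23 listed genes had a probe set naming no other gene; 2 rose and 4 fell, with a median of -0.09. Of the 20, 16 lay above the array median in every sample, and the 6 that passed were among these 16. Of all genes at that level 24% passed. TUBB2A, a beta-tubulin gene, rose 1.33-fold, and MAP2, which stabilises neuronal microtubules, by 20.4%. STMN1, a microtubule destabiliser, fell by 15.7%, and MAP4, the widely expressed microtubule stabiliser, by 17.4% (with a log2 change of -0.09 by the mean over probe sets). Tubulin genes are near-identical copies, so a probe set may read more than the gene it names. The 4 falls became 2 when any miR-151a sample, or either of miR-NC replicates 1 and 2, was left out.

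**Figure D5:**
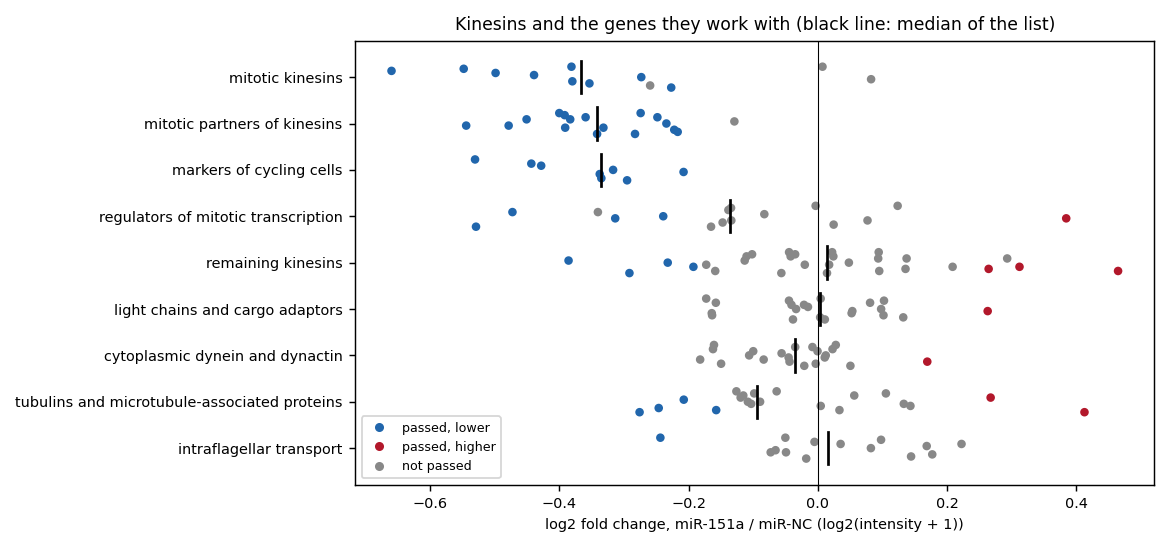
Log2 fold change (x axis) of every measured gene of the 2 kinesin sets and of 7 lists of partner genes, 1 point per gene, with blue and red for genes that passed as lower and higher and a black line at each list's median. The medians of the mitotic kinesins, their mitotic partners and the markers of cycling cells lie between -0.37 and -0.34, and those of the remaining kinesins, cargo adaptors, dynein and intraflagellar transport between -0.04 and 0.01.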

How the data were processed

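RNA from 3 miR-151a and 3 miR-NC samples of U87 cells was compared, with groups taken from the sample titles. Per the labels' protocols, Trizol-extracted total RNA was labelled with biotin for Affymetrix arrays. Each deposited value is the intensity of a probe set on a linear scale, all above 0, in 49395 rows. The submitters' processing notes name MAS5 without a version; how they corrected, summarized and scaled the arrays is not stated there. The labels name a whole-transcript labelling kit, the probe set names follow the style of older expression arrays and the lowest value was 4.15, so whether MAS5 made these intensities is not settled. Array quantiles were nearly equal, so a change common to most messages would be hidden.

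Control probe sets (102) were left out. Gene names came from GEO's platform annotation and were brought up to date by Entrez number against RefSeq; 44988 probe sets named 1 gene, 1832 several and 2473 none. The brightest probe set stood for a gene. Values were taken as log2(intensity + 1) and fitted with limma 3.58.1 in R 4.3.3 (lmFit, eBayes, no covariate), checked on simulated data. Intervals are 95% intervals of the fit. With 3 arrays a group, precision is limited; genes had a median SD of 0.075 (log2) among replicates. Figures used matplotlib 3.10.9.

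The members, partner lists and alternatives were chosen with earlier results of these data known, and the paralog pairs and promoter letters after the values were seen. Named genes were every mitotic kinesin, the remaining kinesins that passed or were the brightest of their subfamily, up to 4 passing members of each partner list by smallest p, CENPE and XRCC4; other genes named were chosen after their values were seen. The fit was repeated after quantile normalization; after centring arrays on their medians; with 32 as pseudocount; without the dimmest probe sets (0.25 quantile); with a variance trend and robust fit; on averaged probe sets; with replicate number as a block; and without each sample.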

Additional observations from a re-analysis of the deposited data

How the results depend on the processing

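The 9 falls among mitotic kinesins ranged from 8 to 10 over the 13 alternatives, with 0 rises in each limma fit. Their median log2 change stayed between -0.38 and -0.34, with -0.34 at a pseudocount of 32. Without 1 sample each in turn, the counts ran from 2 to 3 falls among the remaining kinesins, 800 to 1021 falls among all genes, 2 to 3 falls among tubulins and associated proteins, 0 to 0 rises and 0 to 1 falls in the dynein list, and 0 to 1 rises in the intraflagellar transport list. The median of the remaining kinesins ran from -0.035 to 0.013 in those fits and was -0.010 when probe sets were averaged, so its sign is not settled.

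Over all probe sets, the deviations of samples with the same number from their group means had correlations of -0.08, -0.12 and 0.07 for numbers 1, 2 and 3. With 3 samples a group, such values cannot settle whether these samples shared a culture or a batch, and the labels do not tell. With the replicate block, falls were 2 among the remaining kinesins, 822 among all genes and 2 among tubulins, with 0 rises in the dynein list. KIF3A, KIF5C and KIF13A lost their calls, and the 9 mitotic calls did not change.

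A pseudocount of 32 gave 5 rises among the remaining kinesins, 2218 falls among all genes, falls of 4 (adaptors), 4 (dynein) and 7 (regulators), and rises of 3 (intraflagellar transport) and 2 (regulators). The variance trend with a robust fit gave 5 rises among the remaining kinesins, 2388 falls among all genes, falls of 3 (adaptors), 3 (dynein), 9 (tubulins) and 8 (regulators), and rises of 2 (adaptors) and 3 (intraflagellar transport). The mean over probe sets gave 2 falls among the remaining kinesins, falls of 2 (adaptors), 3 (dynein) and 8 (regulators), and 0 rises among adaptors and dynein. Quantile normalization gave 1 fall among adaptors, 1 in the dynein list and 1 rise in intraflagellar transport; median centring gave 3 falls and 0 rises in the dynein list; and removing low probe sets gave 3 falls in it and 1 rise in intraflagellar transport, with 37 of 41 kinesins then tested. The cause of these shifts was not tested. Signal over background limits KIF2B, KIF25, KIF26A and KIF27, which lie below every array's lower quartile.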

Other observations

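The probe set shared by KIF4A and its near-identical retrocopy KIF4B, left out of the family because it names both genes, measured 285, 274 and 304 with miR-151a and 398, 444 and 448 with miR-NC. The groups did not overlap, and the probe set was lower with miR-151a (log2 change -0.58, SE 0.067, limma adjusted p over probe sets 0.0015), as were both probe sets that name KIF4A alone. The copies cannot be told apart on this probe set.

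Among kinesins that did not pass by their brightest probe set, a dimmer probe set passed for KIF3C (log2 change 0.27, adjusted p over probe sets 0.045) and for KIF6 (0.19, adjusted p 0.046). KIF3C, a kinesin-2 motor, measured 489 ± 17.7 against 445 ± 4.41 in the controls (SD, n = 3 each) by its brightest probe set, without overlap. KIF13B, a relative of KIF13A, was at 0.14 with groups that did not overlap (adjusted p = 0.094). KIF3C passed after quantile normalization, with a pseudocount of 32 and with the variance trend, KIF13B with a pseudocount of 32, and KIF6 with the variance trend and without miR-NC replicate 2. These genes were named after their values were seen.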
